A study of Mus musculus with 4 samples.

Results

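The 41 genes described here encode proteins that start, restrain or carry out regulated cell death by apoptosis, necroptosis, pyroptosis or lipid peroxidation. They were taken by gene name alone, with no measured value in the rule. All 41 names were found on the arrays, with 82 probes between them, and each had a probe above background on all 4 arrays. They stand among 24638 gene entries that passed the same filter, of 37074 on the array.

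Kidney RNA of outbred ICR mice was measured on 1-colour expression arrays, 1 array per group. The groups were mice injected with saline or with vancomycin at zeitgeber time 2 (ZT2), and mice injected with saline or with vancomycin at ZT14, where zeitgeber time counts the hours from lights on. Every kidney was taken 1 day after its injection, so the time of day at collection may go with injection time. Vancomycin is a glycopeptide antibiotic that can injure the tubules of the kidney. Its dose, the sex and age of the mice, and whether mice were pooled for an array are not given in the sources used here. Both ZT2 arrays shared a slide and both ZT14 arrays another, so injection time and slide cannot be told apart, and treatment goes with the position on the slide in the same way. With 1 array per group there are no replicates, and a difference at a single injection time is a value with no test.

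Apoptosis is held in check by the BCL2 family. Anti-apoptotic members bind the pore-forming proteins BAX and BAK, and the small BH3-only proteins release that hold, after which cytochrome c leaves the mitochondria and the apoptosome activates caspases. Death receptors reach the same caspases through FADD and caspase-8, and where caspase-8 is blocked, RIPK1 activates RIPK3, which phosphorylates MLKL, and MLKL ruptures the membrane in necroptosis. In pyroptosis an inflammasome activates an inflammatory caspase, which cuts gasdermin D into a membrane pore. Tubule cells of the injured kidney can die by several of these routes.

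Each array was labelled as kidney, and 7 of 7 proximal tubule markers and 7 of 7 markers of other nephron segments were above background on all 4 arrays. Other cell types differed between the arrays. With vancomycin, 11 of 14 macrophage, 8 of 8 endothelial and 9 of 10 measured lymphocyte markers were lower at ZT2 and at ZT14. Of 8 adrenal markers 6 were higher by 2-fold or more with vancomycin at each time, taking the bound where a group was not above background. At ZT2, 4 of 5 stromal, 3 of 4 measured erythroid and 3 of 6 fat markers were lower by 2-fold or more. The erythroid marker Klf1 and the fat marker Ucp1 were higher there, by 2.78 and by 4.01, a bound, on the log2 scale. Well above background were 60.59% to 64.75% of the spots.

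Cell death genes differed little between vancomycin and saline. Levels below are log2 processed signals minus the 75th percentile of the same array, and a difference is the vancomycin level minus the saline level. At ZT2 the 41 differences ran from -0.92 to 0.48 with a median of 0.05, and at ZT14 from -1.25 to 0.47 with a median of -0.03. The medians over all genes tested were 0 and 0.01. At ZT2, 0 of the 41 genes differed by 2-fold or more, against 9.68% of all genes tested and 4.33% of the 20759 genes above background on all 4 arrays. At ZT14, 2 of the 41 did, Bik and Casp1, both lower, which is 4.88% against 6.8% of all genes and 3.31% of those above background on all 4 arrays. The median absolute difference was 0.23 at ZT2 and 0.18 at ZT14, near the 0.23 and 0.2 over all genes. Over the genes above background on all 4 arrays it was 0.19 and 0.17, so at ZT2 the members were somewhat above those genes.

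**Figure D1:**
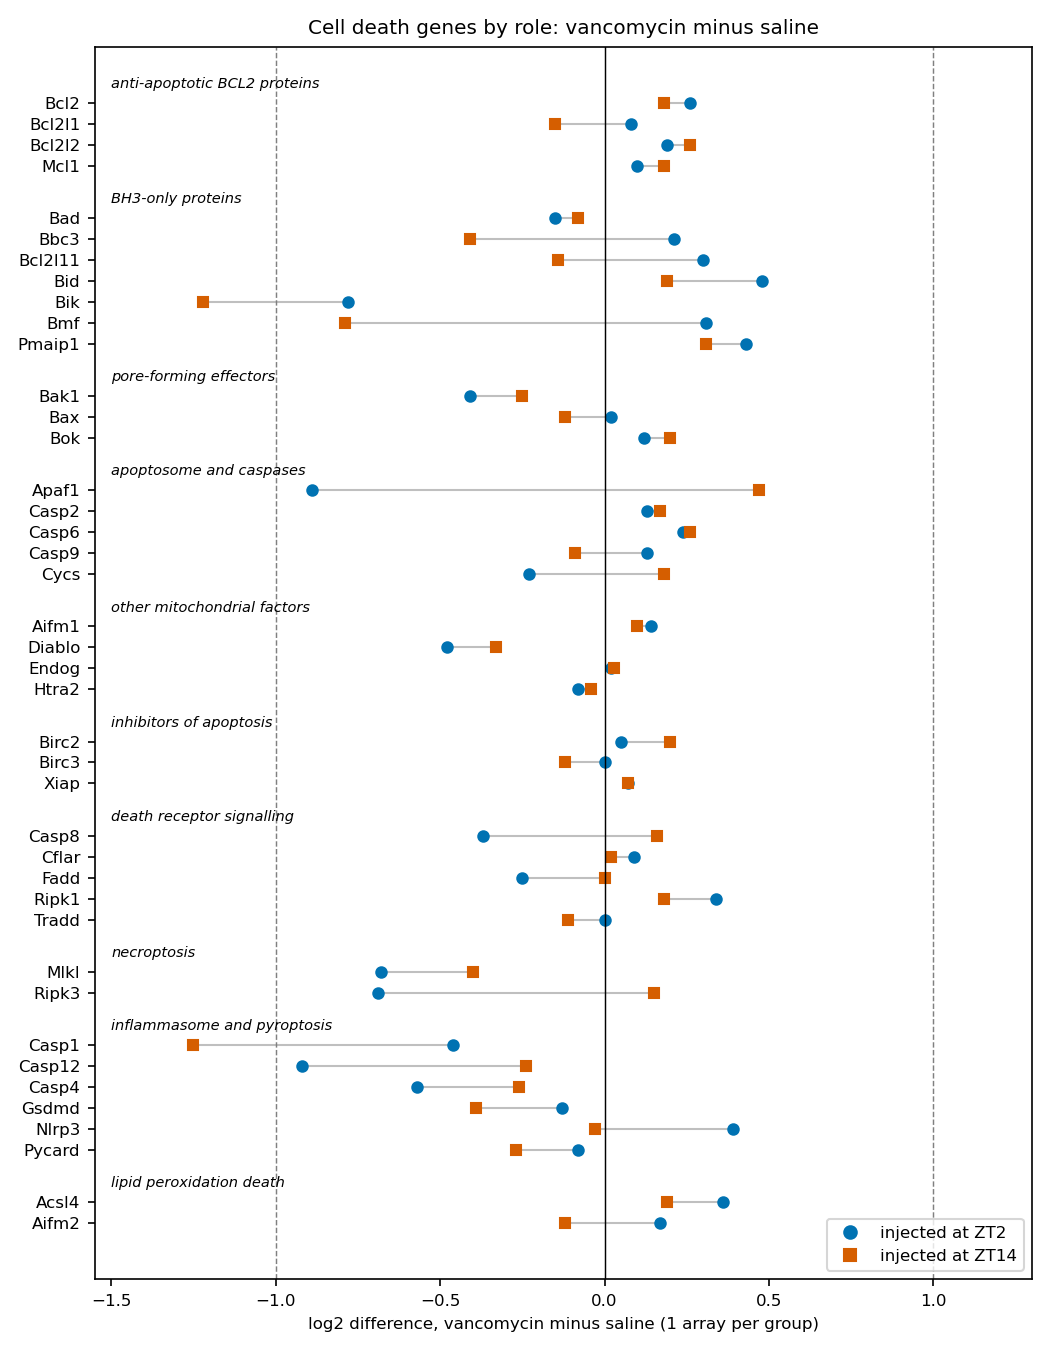
Log2 difference between vancomycin and saline (horizontal axis) for the 41 cell death genes, grouped by role, at ZT2 (circles) and ZT14 (squares), 1 array per group and no error bars. The dashed lines mark a 2-fold difference, which the squares of Bik (-1.22) and Casp1 (-1.25) cross and no other point does.

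Over both injection times, limma with injection time as a term called 0 of the 41 genes for vancomycin at a Benjamini-Hochberg adjusted p of 0.05, as it called 0 of 24638 (0% of all genes). The smallest adjusted p among the members, 0.52, was that of Bik and equals the smallest over all genes. The adjustment gives other genes this same value, so it does not place Bik first. Cx3cr1, a macrophage marker, also had 0.52, with a limma unadjusted p of 0.0065 against 0.015 for Bik. At an unadjusted p under 0.05 there were 2 members, Bik and Mlkl, or 4.88%, against 8.55% of all genes. The sign of the difference was the same at both times for 27 members, of which 15 were higher and 12 lower with vancomycin, that is 36.6% and 29.3% against 28.8% and 28.1% of all genes. In 17 members both vancomycin arrays lay on the same side of both saline arrays, with 8 above and 9 below, or 19.5% and 22% against 11.6% and 12.9% of all genes. The 17 make up 41.5%, against 24.5% of all genes and 24.1% of those above background on all 4 arrays. This count depends on the injection-time difference too, since a large one makes the treatments overlap. The median absolute time effect was 0.2 in members, 0.35 over all genes and 0.31 over those above background on all 4 arrays. For the vancomycin effect over both times these medians were 0.16, 0.17 and 0.14. The part of the time effect in the 41.5% was not tested.

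**Figure D2:**
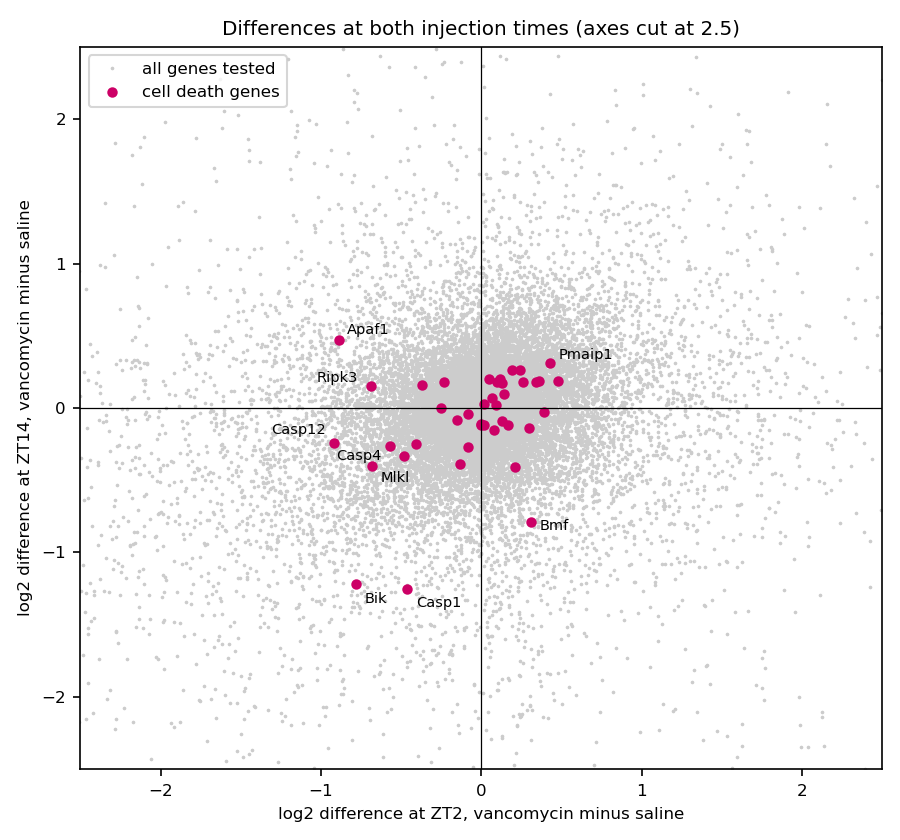
Log2 difference between vancomycin and saline at ZT2 (horizontal axis) against that at ZT14 (vertical axis), 1 point per gene. Cell death genes (large points) lie within the cloud of 24638 genes tested (small points, 488 of them beyond the axes at 2.5), with Bik and Casp1 in its lower left and Apaf1 and Bmf in opposite quadrants.

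Among the 4 anti-apoptotic BCL2 family genes, 3 were higher with vancomycin at both times, each by a small amount. Bcl2l2, which encodes BCL-w, had levels of 1.44 with saline and 1.63 with vancomycin at ZT2, and 1.40 and 1.66 at ZT14. Both vancomycin arrays were above both saline arrays, and the mean difference was 0.23 ± 0.14 (SE, n = 2 arrays per treatment; limma adjusted p = 0.73). Bcl2, the founding inhibitor of the family, differed by 0.26 and 0.18, and its 3 probes were all higher at both times. Mcl1, a guardian with a short-lived protein, differed by 0.10 and 0.18. Bcl2l1, which encodes BCL-XL, differed by 0.08 and -0.15, and its saline and vancomycin arrays overlapped. The 5 probes of Bcl2l1 ran from -0.41 to 0.10 at ZT2.

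BH3-only genes held the member that stood lowest over both times, and they did not move together. Bik encodes a BH3-only protein that antagonises the anti-apoptotic members from the endoplasmic reticulum. Its levels were -0.02 with saline and -0.80 with vancomycin at ZT2, and -0.17 and -1.38 at ZT14. Both vancomycin arrays were well below both saline arrays, while the saline arrays lay close to each other. The differences were -0.78 (1.71-fold lower) and -1.22 (2.32-fold lower), and limma gave a mean of -1.0 ± 0.19 (SE, n = 2 arrays per treatment; adjusted p = 0.52). Its probe, the only one for this gene on the array, covers bases 83374048 to 83374107 of chromosome 15 in mm9, the build of the array files.

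Pmaip1 and Bid were the BH3-only genes that were higher with vancomycin at both times. Pmaip1 encodes NOXA, a target of p53 that binds MCL1. Its levels were 1.04 with saline and 1.47 with vancomycin at ZT2, and 0.26 and 0.57 at ZT14, so vancomycin was above saline within each time, while both ZT14 arrays were below both ZT2 arrays. The mean difference with vancomycin was 0.37 ± 0.14 (SE, n = 2 arrays per treatment; limma adjusted p = 0.62). Bid, which links caspase-8 to the mitochondria, had levels of 1.62 and 2.11 at ZT2 and 1.61 and 1.80 at ZT14. Here both vancomycin arrays were above both saline arrays, by 0.48 and 0.19.

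The other BH3-only genes were near saline or differed in sign between times. Bmf, a sensor of detachment from the matrix, had levels of -1.74 with saline and -1.43 with vancomycin at ZT2, and -1.22 and -2.02 at ZT14, differences of 0.31 and -0.79. Its dimmer probe had the opposite signs, with -0.46 and 0.20. Bbc3, which encodes PUMA, another p53 target, differed by 0.21 and -0.41. Bcl2l11, which encodes BIM, differed by 0.30 and -0.14, and Bad, a BH3-only gene controlled by survival kinases, by -0.15 and -0.08.

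Of the pore-forming effectors, Bak1 was lower with vancomycin at both times. Its levels were 1.33 with saline and 0.92 with vancomycin at ZT2, and 1.40 and 1.16 at ZT14, with both vancomycin arrays below both saline arrays. The mean difference was -0.33 ± 0.14 (SE, n = 2 arrays per treatment; limma adjusted p = 0.65). Bax, its partner in opening the outer mitochondrial membrane, differed by 0.02 and -0.12, and Bok, a related effector, by 0.12 and 0.20.

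Downstream of the pore, Apaf1 was the member with the widest gap between the times. It encodes the scaffold of the apoptosome. Its levels were -3.25 with saline and -4.14 with vancomycin at ZT2, and -3.98 and -3.51 at ZT14, so vancomycin was lower at ZT2 and higher at ZT14, with differences of -0.89 and 0.47. A second probe above background had the same signs, with -0.54 and 0.25. The main probe was dim, with processed signals of 27.79 to 57.38. Apaf1 differed by -0.25 and 0.23 with normexp background correction, which adds an offset of 50 to each signal. Caspase-6 is an effector caspase, and Casp6 had levels of 0.76 and 1.00 at ZT2 and 0.62 and 0.88 at ZT14. Both its vancomycin arrays were above both saline arrays, by 0.24 and 0.26. Casp9, the initiator caspase of the apoptosome, differed by 0.13 and -0.09, Casp2, an initiator linked to DNA damage, by 0.13 and 0.17, and Cycs, which encodes cytochrome c, by -0.23 and 0.18.

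Diablo was the lower member among the other mitochondrial factors. It encodes SMAC, which is released with cytochrome c and relieves the inhibitors of apoptosis. Its levels were 1.93 with saline and 1.45 with vancomycin at ZT2, and 2.17 and 1.83 at ZT14, with both vancomycin arrays below both saline arrays. The mean difference was -0.41 ± 0.14 (SE, n = 2 arrays per treatment; limma adjusted p = 0.62), and 2 of its 3 probes above background had the same sign at ZT14. Htra2, a protease released in the same way, differed by -0.08 and -0.04, Aifm1, the apoptosis-inducing factor, by 0.14 and 0.10, and Endog, a mitochondrial nuclease, by 0.02 and 0.03. Of the inhibitors that SMAC binds, Xiap, the direct caspase inhibitor, differed by 0.07 at both times, and the ubiquitin ligase genes Birc2 and Birc3 differed by 0.05 and 0.20 and by 0 and -0.12. The 4 probes of Birc3 disagreed, from -0.38 to 0.02 at ZT2 and from -1.29 to 1.00 at ZT14.

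Genes of death receptor signalling showed small differences. Ripk1, the kinase that stands between survival, apoptosis and necroptosis, differed by 0.34 and 0.18, although its 2 dimmer probes had -0.07 and -1.24 at ZT2. Casp8, the initiator caspase of this route, differed by -0.37 and 0.16. Cflar, its decoy, differed by 0.09 and 0.02 and the adaptor genes Fadd and Tradd by -0.25 to 0.

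**Figure D3:**
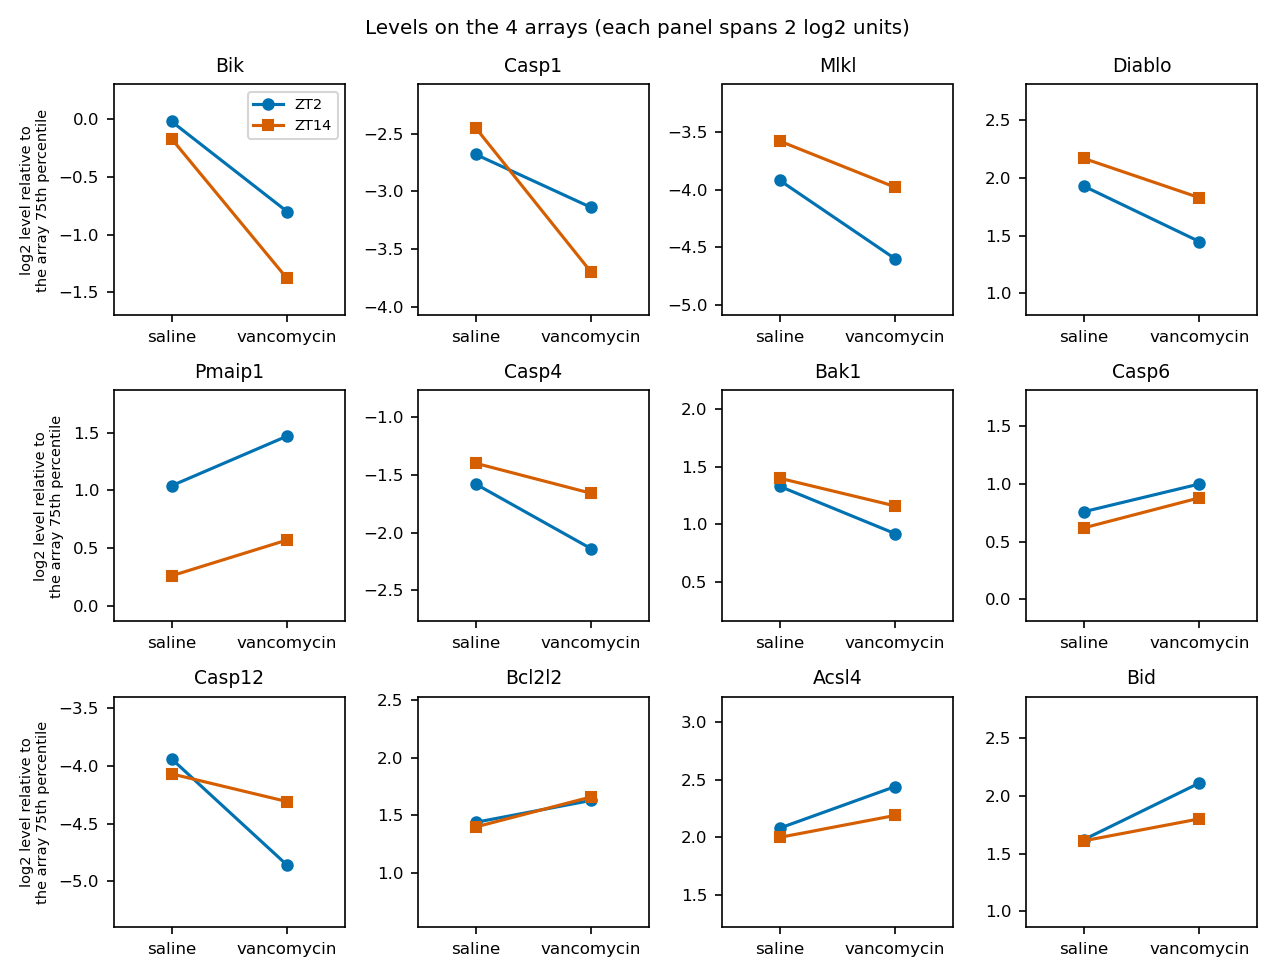
Log2 level relative to the array's 75th percentile (vertical axis, 2 log2 units in every panel) with saline and vancomycin for 12 cell death genes, at ZT2 (circles) and ZT14 (squares), 1 array per point. Both lines slope down for Bik, Casp1, Mlkl, Diablo, Casp4, Bak1 and Casp12 and up for the other 5 genes.

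Lower with vancomycin at both times were 1 of the 2 necroptosis genes and 5 of the 6 inflammasome and pyroptosis genes. Among all 41 members there were 12 such genes, or 29.3%, against 28.1% of all genes tested. Some of these differences were small, such as -0.08 for Pycard and -0.13 for Gsdmd at ZT2. Mlkl, the executor of necroptosis, had levels of -3.92 with saline and -4.60 with vancomycin at ZT2, and -3.58 and -3.98 at ZT14. Both vancomycin arrays were below both saline arrays, and the mean difference was -0.54 ± 0.16 (SE, n = 2 arrays per treatment; limma adjusted p = 0.57). Its probe was dim, with processed signals of 20.19 to 56.79, and with normexp background correction, which adds an offset of 50 to each signal, the differences were -0.09 and -0.10. Ripk3, the kinase that activates MLKL, had levels of -2.92 with saline and -3.60 with vancomycin at ZT2, and -2.63 and -2.48 at ZT14. It was thus lower with vancomycin at ZT2, by -0.69, and not at ZT14, with 0.15. With normexp background correction these differences were -0.23 and 0.11.

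Of the 6 inflammasome and pyroptosis genes, 5 were lower with vancomycin at both times, or 83.3% against 28.1% of all genes, with medians over the 6 of -0.30 at ZT2 and -0.26 at ZT14. Casp1 encodes caspase-1, which the inflammasome activates to cut gasdermin D and the precursors of interleukin 1 beta and 18. Its levels were -2.68 with saline and -3.14 with vancomycin at ZT2, and -2.45 and -3.70 at ZT14. Both vancomycin arrays were below both saline arrays, by -0.46 (1.37-fold lower) and -1.25 (2.38-fold lower), and limma gave -0.85 ± 0.27 (SE, n = 2 arrays per treatment; adjusted p = 0.59). With normexp background correction the differences were -0.14 and -0.64, so that Casp1 was no longer past 2-fold at ZT14.

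Casp4 encodes the mouse caspase-11, which senses bacterial lipopolysaccharide inside the cell. Its levels were -1.58 and -2.14 at ZT2 and -1.40 and -1.66 at ZT14, differences of -0.57 and -0.26. Casp12, a relative linked to the endoplasmic reticulum, had levels of -3.94 and -4.86 at ZT2 and -4.07 and -4.31 at ZT14, differences of -0.92 and -0.24. For both genes the vancomycin arrays were below both saline arrays. Casp12 was dim too, and with normexp background correction its differences were -0.19 and -0.02.

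Gsdmd, the gene of the pore-forming substrate of caspase-1, differed by -0.13 and -0.39, with the same signs in both of its probes. Pycard, the adaptor that joins sensor and caspase-1, differed by -0.08 and -0.27. Nlrp3, the sensor, was the exception, with 0.39 and -0.03. Macrophages express these inflammasome genes, and most macrophage markers were lower too. Of 14 measured markers 11 were lower at both times, with medians of -0.47 at ZT2 and -0.53 at ZT14, and 13 of the 14 were above background on all 4 arrays. The summed signal of the list, in units of the 75th percentile of each array, was 39.8 with saline and 39.2 with vancomycin at ZT2, and 50.3 and 47.4 at ZT14. Itgam, Csf1r and Lyz2 made up 82.6% to 89% of this sum, and of these Itgam and Csf1r were higher with vancomycin at ZT2, by 0.05 and 0.43. The part of these markers in the lower Casp1, Casp4 and Casp12 levels was not tested. In whole kidney RNA, fewer cells of a type and less RNA per cell cannot be told apart.

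Casp1, Casp4 and Casp12 are neighbours. In mm9 their probes lie on chromosome 9 at 5307206 to 5307265, 5336658 to 5336717 and 5372258 to 5372317, within 65112 bases. The 250 bases before the start sites of these 3 genes and Mlkl are shown. The 4 genes were picked from the 12 members lower with vancomycin at both times, and others of the 12, such as Diablo and Bak1, are not shown. Sequences are from RefSeq in GRCm38.p6, 5′ to 3′ on the strand of the gene, with matches to the motifs searched in capitals.
Casp1, chr9:5298267-5298516, plus strand: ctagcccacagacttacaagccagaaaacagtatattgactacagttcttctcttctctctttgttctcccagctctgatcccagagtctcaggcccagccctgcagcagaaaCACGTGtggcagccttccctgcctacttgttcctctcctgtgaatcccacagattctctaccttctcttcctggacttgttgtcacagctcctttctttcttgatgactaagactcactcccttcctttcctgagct
Casp4, chr9:5308599-5308848, plus strand: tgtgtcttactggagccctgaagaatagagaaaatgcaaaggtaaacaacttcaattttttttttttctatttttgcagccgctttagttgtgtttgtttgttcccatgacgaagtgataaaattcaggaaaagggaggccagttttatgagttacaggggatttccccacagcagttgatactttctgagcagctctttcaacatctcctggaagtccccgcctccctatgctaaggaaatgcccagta
Casp12, chr9:5345226-5345475, plus strand: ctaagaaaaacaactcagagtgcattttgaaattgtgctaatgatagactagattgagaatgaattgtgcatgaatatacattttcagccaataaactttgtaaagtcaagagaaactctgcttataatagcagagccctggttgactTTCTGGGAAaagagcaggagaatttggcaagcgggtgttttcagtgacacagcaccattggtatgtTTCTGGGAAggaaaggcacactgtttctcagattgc
Mlkl, chr8:111338206-111338455, minus strand: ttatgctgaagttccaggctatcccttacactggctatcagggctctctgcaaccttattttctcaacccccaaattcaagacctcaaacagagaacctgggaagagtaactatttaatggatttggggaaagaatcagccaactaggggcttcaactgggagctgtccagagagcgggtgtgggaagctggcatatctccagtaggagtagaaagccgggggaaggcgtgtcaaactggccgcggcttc
Both strands were searched for a STAT site (TTCNNNGAA), an E-box (CACGTG) and a CHOP-ATF composite site (TGATGNAA). In the Casp1 window the first base of an E-box stood at -137 relative to the start. The Casp12 window held a pair of STAT sites with the same letters, TTCTGGGAA, beginning at -102 and -36. In the Casp4 and Mlkl windows 0 motifs were found, and no matches overlapped. Over the 36 members with a RefSeq window, 4 held an E-box (Bax, Bbc3, Casp1 and Ripk3), or 11.1% against 6.86% of 27025 genes with a window. A STAT site stood in 2 members (Casp12 and Ripk1), or 5.56% against 8.13%, and the CHOP-ATF composite in 1 (Nlrp3), or 2.78% against 3.91%. Bik, Pmaip1, Htra2, Gsdmd and Tradd were not among the 36.

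In the lipid peroxidation route, Acsl4 was higher with vancomycin. It encodes an acyl-CoA synthetase that puts polyunsaturated fatty acids into phospholipids, the substrate of ferroptosis. Its levels were 2.08 with saline and 2.44 with vancomycin at ZT2, and 2.00 and 2.19 at ZT14, with both vancomycin arrays above both saline arrays. The mean difference was 0.27 ± 0.14 (SE, n = 2 arrays per treatment; limma adjusted p = 0.70), and its 3 probes were all higher at both times. Aifm2, which encodes the ferroptosis suppressor FSP1, differed by 0.17 and -0.12.

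**Figure D4:**
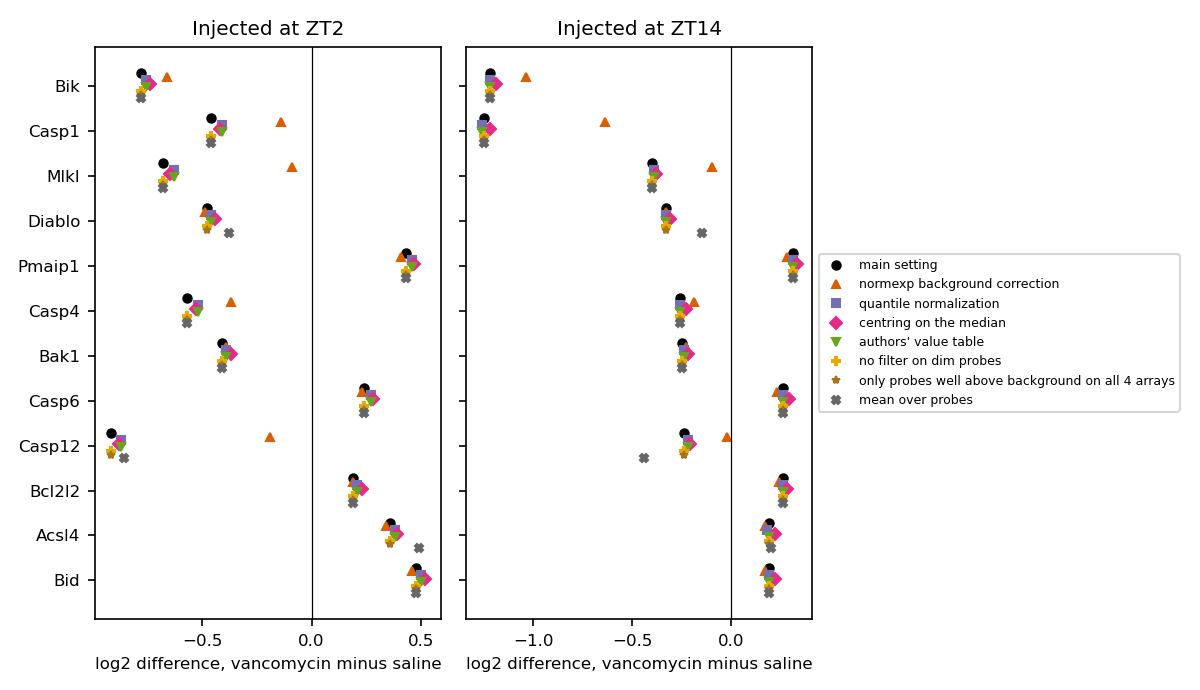
Log2 difference between vancomycin and saline (horizontal axis) for 12 cell death genes at ZT2 (left) and ZT14 (right) under the main setting and 7 other ways of processing the arrays, 1 symbol per setting. Bik stays between -1.22 and -1.04 at ZT14, while Casp1, Mlkl and Casp12 lie nearer to 0 with normexp background correction (triangles).

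Between injection times few members differed by 2-fold. For ZT14 minus ZT2, 0 of the 41 genes were past 2-fold in saline kidneys, against 15.8% of all genes and 9.81% of those above background on all 4 arrays, and 1 was in vancomycin kidneys, Ripk3 with 1.13, or 2.44% against 17.3% and 11.1%. The 1 probe of Ripk3 was dim, with processed signals of 40.34 to 116.8. Its mean time difference over both treatments was 0.71, and 0.27 with normexp background correction. In 17 members both ZT14 arrays lay on the same side of both ZT2 arrays, or 41.5%, against 59.9% of all genes and 60.8% of those above background on all 4 arrays. The following genes were picked for their values. Pmaip1 was lower at ZT14 in both treatments, by -0.78 with saline and -0.90 with vancomycin, a mean of -0.84 ± 0.14 (SE, n = 2 arrays per time; limma adjusted p = 0.11). Bax was also lower at ZT14, with -0.41 and -0.55, and Gsdmd was higher, with 0.76 and 0.51. By limma with all genes 0 members passed for injection time, as did 0% of all genes, while 3 members, Pmaip1, Bax and Gsdmd, were at an unadjusted p under 0.05, or 7.32% against 27.2%. Pmaip1 passed limma with normexp background correction and with a robust prior that follows intensity (adjusted p = 0.02 each). It was 1 of 41 members there, while 2945 and 3396 of the 24638 genes tested passed. Injection time, slide and any difference in time of day at collection cannot be told apart in any of these values.

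**Figure D5:**
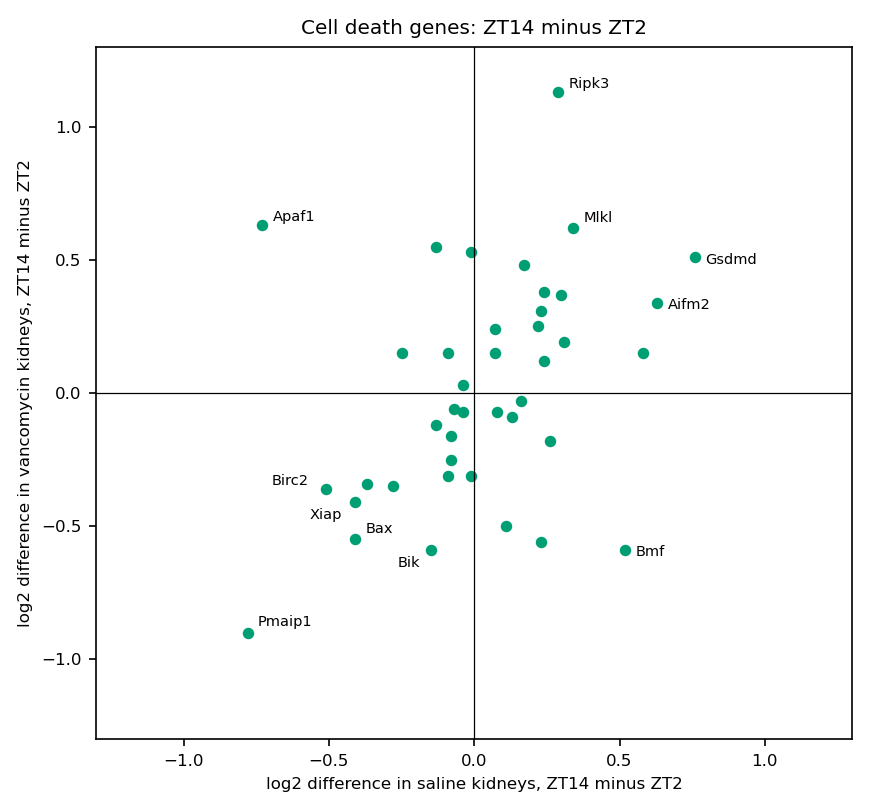
Log2 difference of ZT14 minus ZT2 in saline kidneys (horizontal axis) against that in vancomycin kidneys (vertical axis) for the 41 cell death genes, 1 point per gene and 1 array per group. Pmaip1 lies lowest on both axes at -0.78 and -0.90, and Ripk3 reaches 1.13 in vancomycin kidneys.

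Of 68 further genes of death ligands and receptors, the BCL2 family and caspases, the p53 axis, pyroptosis and ferroptosis, 59 were measured. At both times 11 of these (18.6%) were higher and 21 (35.6%) lower with vancomycin, against 28.8% and 28.1% of all genes, the medians were -0.01 and -0.08, and 0 passed limma. By 2-fold or more 2 were higher and 6 lower at ZT2, against 3.7% and 5.98% of all genes, and 0 were higher and 3 lower at ZT14, against 2.31% and 4.49%. With bounds in place of values not above background, the counts were 1 higher and 5 lower at ZT2 and 0 and 2 at ZT14. Nlrc4, which encodes an inflammasome protein, differed by -1.23 and -2.14, and Alox5, a lipoxygenase gene of leukocytes, by -1.06, a bound, since it was not well above background with vancomycin at ZT2, and by -1.51. Il1b, the cytokine that caspase-1 matures, differed by 1.62 and -0.67. Bcl2a1d, an anti-apoptotic gene of blood cells, differed by -1.77 and -0.42, and the gasdermin genes Gsdmc and Gsdmc2 by -1.28 and 0.32 and by -1.17 and 0.55. Fasl and Casp14 were not well above background on either ZT2 array, and at ZT14 neither was past 2-fold, Fasl by its bound.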

How the data were processed

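Total RNA was labelled with Cy3 and hybridized to Agilent mouse arrays, 1 per group. Per the file headers, the authors' deposited intensity values come from Feature Extraction 10.7.1.1 (9.5.1.1 per the submitters' processing notes): background was subtracted and trends within the array removed, with no normalization between arrays. Raw spot and background intensity values were deposited too. The authors' deposited table of linear intensity values has the same median, 35.24, in all 4 columns, and was used as an alternative.

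Here the 75th percentile of an array was subtracted from its log2 processed signals, outlier spots left out and spots of a probe averaged. Probes needed 50% or more of their spots flagged as well above background on 1 or more arrays, and a gene is its brightest kept probe. Gsdme stands in the array files as Dfna5. limma 3.58.1 (R 4.3.3) fitted treatment and injection time over 24638 genes, with Benjamini-Hochberg adjustment over all of them. The fit has 1 residual degree of freedom, which holds how far the vancomycin differences at both times disagree and not a spread between animals, and a prior SD of 0.168. The SE of a gene rests on both. Where the 2 differences were close, as in the genes with an SE of 0.14, it was set mostly by the prior. Replicate spots had a median SD of 0.0417 to 0.0491 (log2) within an array. Arrays have no read depth, and their number limits the precision. The script was tested on simulated data.

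A bound is given where 1 array of a pair was not well above background. That array was set to the lowest signal above background there, or kept its own signal where that was higher. Alternatives were normexp background correction, quantile normalization, median centring, the authors' values, other filters, the mean over probes, no injection-time term, and a trended robust prior. Values in every sample are given for members past 2-fold at either time, those past 2-fold between ZT14 and ZT2 in both treatments, and the 12 with the largest smaller difference of both times; for Bmf, Apaf1 and Ripk3 they were added after their values were seen. Of the other pathway genes, those past 2-fold at either time are named. The members, lists and rules were chosen with earlier results of these data known.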

Additional observations from a re-analysis of the deposited data

Results flagged for a closer look

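Apaf1 and Bmf had vancomycin differences of opposite sign at the injection times that lay 2-fold or more apart. For Apaf1 the ZT14 difference exceeded the ZT2 difference by 1.36 on the log2 scale, and for Bmf the ZT14 difference minus the ZT2 difference was -1.10. With 1 array per group, this contrast between times was not tested. With normexp background correction the gaps were 0.48 for Apaf1 and -0.88 for Bmf, and with the mean over probes 1.07 and -0.22, where both Bmf differences were negative. The dimmer Bmf probe had the opposite sign at each time.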

How the results depend on the processing

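With normexp background correction 1 member, Bik, was 2-fold or more lower with vancomycin at ZT14 in place of 2, and the cause was not tested. For ZT14 minus ZT2, 1 member of 41, Pmaip1, passed limma with normexp background correction and with a robust prior that follows intensity, in place of 0. In these 2 settings 2945 and 3396 of 24638 genes passed. In all settings 0 members passed for vancomycin, and without injection time as a term the smallest adjusted p among members was 1. The 12 genes with the largest smaller difference of both times had the same sign at both times, so their selection favoured stable signs. Bmf, Apaf1 and Ripk3, whose levels are also given, are not among the 12. Bmf turned sign at ZT2 with the mean over probes, from 0.31 to -0.08. Of 276 values of the 12 genes under other settings, 0 turned sign and 13 moved by over 1.5 times. With normexp these were Casp1 (-0.14 at ZT2, -0.64 at ZT14, -0.39 over both), Casp12 (-0.19, -0.02 and -0.11), Mlkl (-0.09, -0.10 and -0.09) and Casp4 at ZT2 (-0.37). With the mean over probes they were Casp12 at ZT14 (-0.44) and Diablo (-0.15 at ZT14 and -0.27 over both). Taking the mean over probes turned the sign of Bcl2l1, Bmf, Casp9 and Ripk1 at ZT2 and of Bcl2l11 at both times, and normexp that of Nlrp3 at ZT14 and of Birc3, whose 2 differences were then 0.11 and 0.08. Without a filter on dim probes the median over all genes was 0.11 at ZT2 and 0.09 at ZT14. The labels give no replicate numbers; the fit with injection time as a term compares treatments within each time and slide, and the fit without it does not.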
